A study of Mus musculus with 2 samples.

Results

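The neurotransmitter receptor genes described here are the mouse protein-coding genes whose symbols name ionotropic glutamate receptors (Gria, Grik, Grin), metabotropic glutamate receptors (Grm), GABA-A and GABA-B receptors (Gabr with subunit letters a, b, d, e, g or r, and Gabbr), glycine receptors (Glra), nicotinic acetylcholine receptors (Chrn) and serotonin receptors (Htr). They were chosen by symbol alone, and 77 of the 21883 protein-coding genes on the mouse chromosomes used here met the rule. ATAC-seq, which maps open chromatin from the sites where a transposase can cut, was done on C57BL/6 prostate tumor cells on their way to neuroendocrine prostate cancer, a form with features of neurons and endocrine cells. The late-stage library, M6, came from cells given tamoxifen for 6 months. The early-stage library, W2, came from cells given tamoxifen for 2 weeks, so both stages had received the drug. The labels name neither a transgene nor a Cre driver, and the sources used here do not say whether the cells came straight from tumors or from culture. With 1 library a stage there was no replicate check on any difference, no test of the stages was made, and every interval covers counting error only.

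These receptors turn a released transmitter into an electrical or chemical signal. Ionotropic receptors are channels built from several subunits, each from its own gene, and open when glutamate, GABA, glycine, acetylcholine or serotonin binds. Metabotropic glutamate, GABA-B and most serotonin receptors instead act through G proteins. Most of these genes are best known from neurons, several nicotinic subunits from skeletal muscle, and many of them are very long.

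On the assembled mm10 chromosomes the deposited lists held 22570 peaks in M6 and 5735 in W2. The read depth of both libraries is unknown. The tag pileup at each summit and its local background were recovered from the deposited statistics. The lowest pileup was 10 tags in M6 and 12 tags in W2, so weaker sites are outside both lists. The lowest local background was 2.65 tags in M6 and 2.96 tags in W2. Cell type markers were read against the counts that all protein-coding genes of the same lengths would give. Of 12 luminal prostate markers, 7 had a peak within 10 kb in M6 and 4 in W2, against 5.98 and 3.03 from genes of the same lengths, and Hoxb13, Krt19 and Pbsn were among those with none in either. Of 10 neuroendocrine markers, 8 had one in M6 and 1 in W2, against 5.65 and 2.88, and Chga was among those with none. Of 10 neuron markers, 6 had one in M6 and 1 in W2, against 7.02 and 3.15. Of 8 markers of Schwann cells and other glia, 4 had one in M6 and 4 in W2, against 4.52 and 2.31, with 1 gene in M6 only and 1 in W2 only. Skeletal muscle markers had peaks at 4 of 7 genes in M6 and 1 in W2, against 3.99 and 2.01, and leukocyte markers at 1 of 7 in M6 and 1 in W2, against 4.33 and 2.17. Endothelial markers had peaks at 3 of 5 genes in M6 and 2 in W2, against 3.82 and 1.82, and fibroblast markers at 2 of 6 in M6 and 0 in W2, against 3.95 and 2.00. The part of such cells in the results below was not tested.

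Most receptor genes had no peak in either library. More of them had a peak in M6 than in W2, which was also so for all protein-coding genes. The locus of a gene was its body with 10 kb on either side, and any peak overlapping it by at least 1 bp was counted. At the 77 receptor loci there were 58 different peaks in M6 and 5 in W2. In M6, 34 receptor genes (44.2%, exact binomial 95% interval 32.8 to 55.9%) had a locus peak, where the share over all protein-coding genes was 59.1%. In W2, 5 receptor genes (6.49%, 2.14 to 14.5%) had one, where the share over all genes was 29.6%. Peaks in M6 and none in W2 were found at 30 genes (39.0%), beside 30.5% of all genes. That share over all genes is not matched for gene length, so it does not show an excess of such genes. Peaks in both were found at 4 genes (5.19%), beside 28.6% of all genes. A W2 peak without an M6 peak was found at 1 gene (1.30%), beside 0.973% of all genes. The other 42 genes (54.5%) had no peak, beside 39.9% of all genes.

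**Figure D1:**
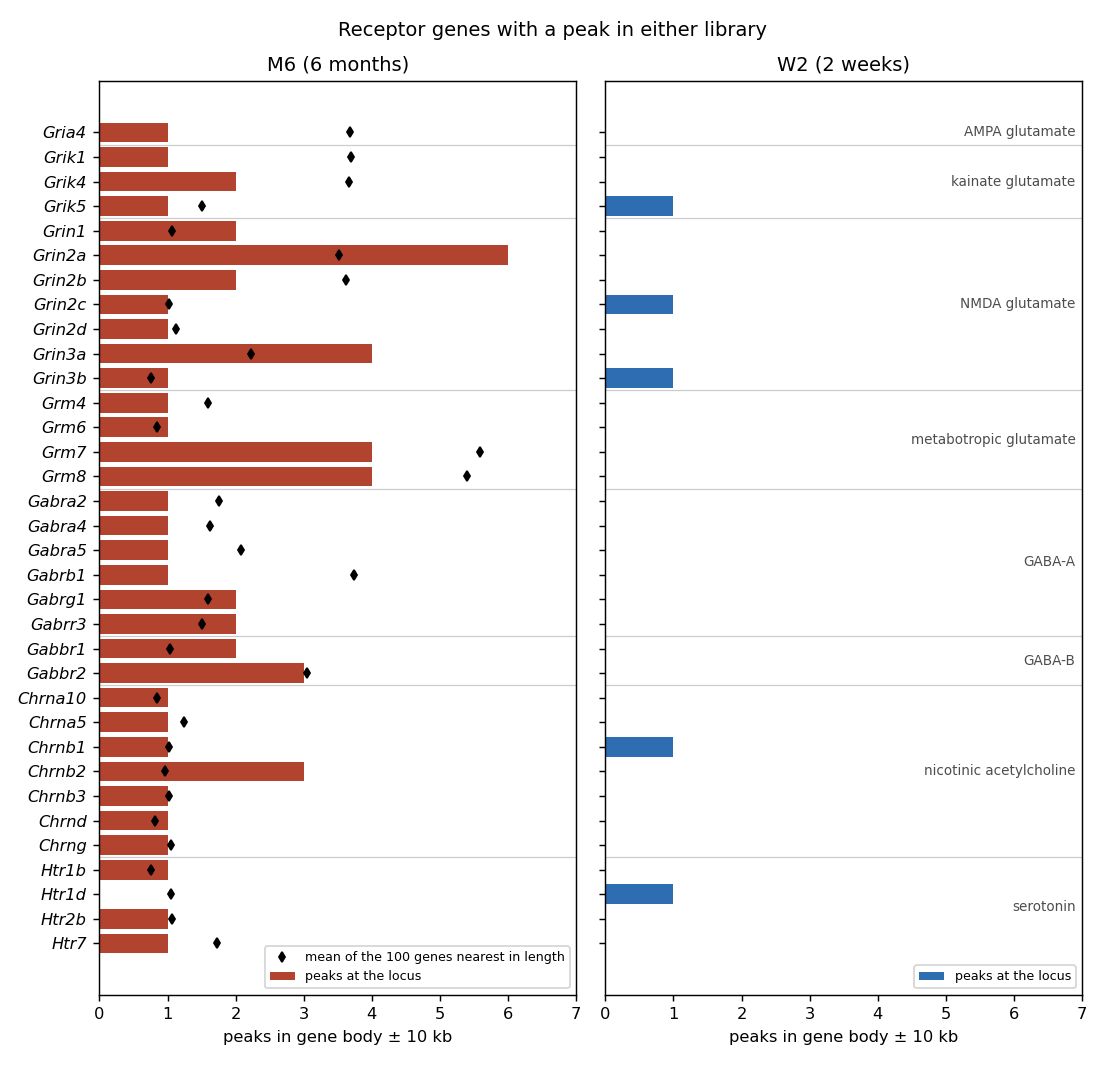
Number of peaks in the gene body with 10 kb on either side for receptor genes with a peak in either library, M6 left and W2 right, grouped by receptor family. Bars are peaks of 1 library and black diamonds the mean M6 count of the 100 genes nearest in length. Grin2a has the longest M6 bar, with 6 peaks, and every W2 bar stands at 0 or 1.

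Long genes have more room for peaks, so the receptor genes were set against all protein-coding genes of the same length class. If each receptor gene had carried the share of its class, 55 of them would have had an M6 peak and 25.2 a W2 peak, against the 34 and 5 observed, ratios of 0.618 and 0.198. Counted as peaks per gene, the receptor genes had 60 M6 peaks where the class means add up to 141, a ratio of 0.426. In these counts a peak shared by neighbouring receptor genes counts for each. The gap was widest for genes of 100 to 300 kb. In that class, 4 of 16 receptor genes had an M6 peak (25.0%, 7.27 to 52.4%), against 81.5% of all 1872 genes. At 300 kb and above, 9 of 14 had one (64.3%, 35.1 to 87.2%), against 88.8% of 556 genes. Between 10 and 30 kb, 7 of 24 had one (29.2%, 12.6 to 51.1%), against 62.9%. Between 30 and 100 kb, 9 of 16 had one (56.2%, 29.9 to 80.2%), against 73.1%. Below 10 kb the order turned, with 5 of 7 (71.4%, 29.0 to 96.3%) against 39.7%, and the interval is wide. In W2, 0 of 16 receptor genes of 100 to 300 kb had a peak (0 to 20.6%), against 36.4% of all genes of the class, and 0 of 14 from 300 kb up (0 to 23.2%), against 29.1%.

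**Figure D2:**
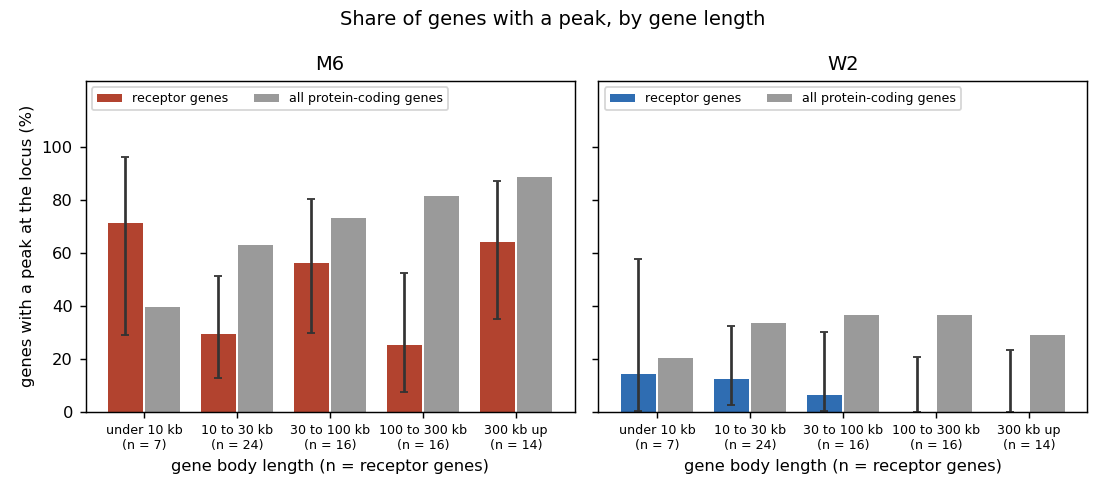
Percentage of genes with at least 1 peak in the gene body with 10 kb on either side, by gene length, in M6 (left) and W2 (right). Colored bars are receptor genes with exact binomial 95% intervals and grey bars all protein-coding genes of the class. In M6 the receptor bar stands at 25.0% and the grey bar at 81.5% for genes of 100 to 300 kb.

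The shortfall held at gene ends and inside genes alike. Within 1 kb of an annotated end, 17 receptor genes (22.1%) had a peak in M6 and 1 (1.30%) in W2, beside 39.7% and 18.4% of all genes. Their length classes would have given 34.0 and 14.4 genes. A gene-end peak in M6 without one in W2 was found at 16 genes (20.8%), beside 21.9% of all genes. Away from every gene end, 18 receptor genes had a locus peak in M6 and 2 in W2, where the length classes would have given 34.2 and 9.37. Those 18 genes held 34 M6 peaks, against 90.7 from the class means. The remaining locus peaks lay at an end of some other gene, which applied to 6 receptor genes in M6 and 2 in W2.

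The M6 peaks at receptor loci were somewhat weaker than M6 peaks in general. Their fold over the local background, as the authors deposited it, had a median of 4.27 and a range of 2.64 to 8.11, and the median over all M6 peaks was 4.71. Their median pileup was 18 tags (11 to 58), against 21 tags over all M6 peaks, and their median −log10 q was 5.31 against 6.92. Of the 58 peaks, 5 overlapped a W2 peak (8.62%, 2.86 to 19.0%), where 20.2% of all M6 peaks did. Of these 5, all but the one near Grik5 were at the end of a neighbouring gene that encodes no receptor (within 1 kb), and without such peaks 1 of 49 (2.04%, 0.0517 to 10.9%) overlapped a W2 peak. If each of the 58 had carried the share of all M6 peaks in its class of −log10 q, 8.81 would have overlapped, and 8.66 when gene-end peaks and others were also kept apart. At shared sites M6 pileups were 1.46 times those of W2 (median over 4618 W2 peaks), which puts the W2 minimum of 12 tags at 17.5 tags on the M6 scale. Of the receptor peaks, 25 (43.1%) lay below that, against 30.2% of all M6 peaks, so at those sites an unlisted W2 signal of proportionate size cannot be told apart from none. The 17.5 tags rest on the lowest W2 peak of all, so a W2 signal could have gone unlisted at other sites too.

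**Figure D3:**
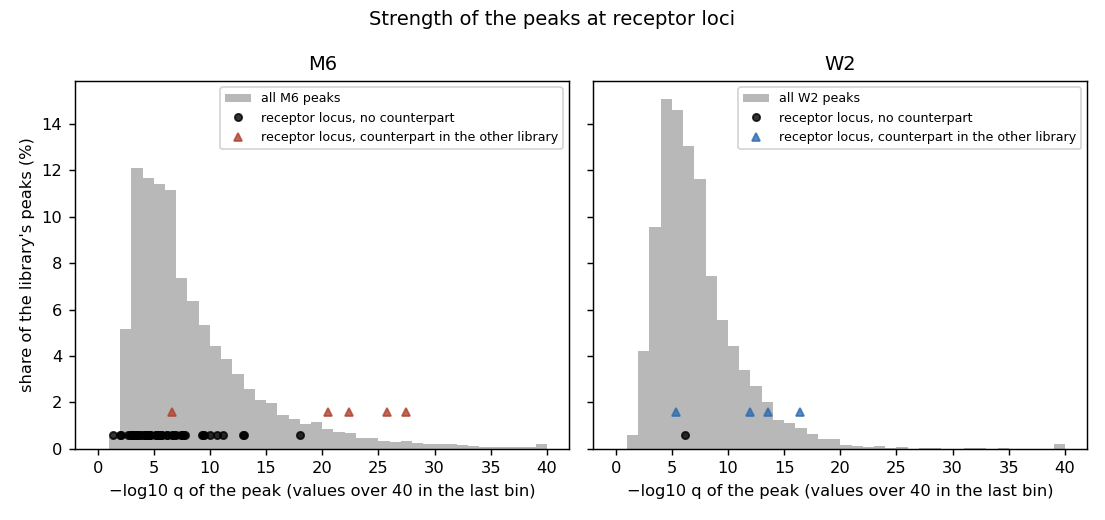
Distribution of −log10 q over all peaks of M6 (left, grey) and W2 (right, grey), as a percentage of each library's peaks. Symbols near the axis mark peaks at receptor loci, circles without and triangles with a counterpart in the other library, at an arbitrary height. The M6 circles reach 18.03, and 4 of the 5 M6 triangles lie above 20.

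NMDA receptor genes were the ionotropic glutamate family with the most peaks. NMDA receptors are calcium-permeable channels made of the obligatory subunit of Grin1 with glutamate-binding Grin2 or glycine-binding Grin3 subunits. All 7 of these genes had an M6 locus peak, where their length classes would have given 4.98, and 2 had a W2 peak, against 2.19. Together they held 17 M6 peaks, against 14.3 from the class means. Grin2a, which spans chr16:9567901-9996083, had 6 M6 peaks and 0 W2 peaks. As many or more were found at 21% of the 100 genes nearest to it in length, whose mean was 3.51. The Grin2a peaks were weak, with pileups of 12 to 18 tags and −log10 q values of 2.66 to 5.11. Of the 6 peaks, 3 lay close together between 9813164 and 9819863. No W2 peak lay within 307 kb of any of them.

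Grin3a, chr4:49661611-49846023, had 4 M6 peaks and 0 W2 peaks, and 20% of the 100 genes nearest in length had as many. Its strongest lay inside the gene (chr4:49728787-49729148, pileup 20 tags, fold 5.20, −log10 q 7.58). Another lay 0.81 kb inside an end of the gene, with a pileup of 14 tags. Grin1 had a pair of adjacent M6 peaks at its start, centred 34 bp upstream and 753 bp downstream of the RefSeq start, with pileups of 19 and 18 tags and folds of 4.13 and 3.89. The nearest W2 peak was 45.9 kb away. Grin2b had 2 M6 peaks inside the gene, the stronger with a pileup of 25 tags, a fold of 5.91 and a −log10 q of 10.7. The peaks of the remaining NMDA receptor genes lay at ends of neighbouring genes. Those were the single M6 peaks of Grin2c at Fdxr, Grin2d at Grwd1 and Grin3b at Tmem259, of which that of Grin2d was also within 1 kb of its own end. The Grin2c and Grin3b peaks were present in both libraries, with pileups of 48 tags in M6 and 30 tags in W2 for Grin2c, and 51 tags in M6 and 23 tags in W2 for Grin3b. Without such peaks, 4 of the 7 genes kept an M6 peak and 0 had a W2 peak.

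**Figure D4:**
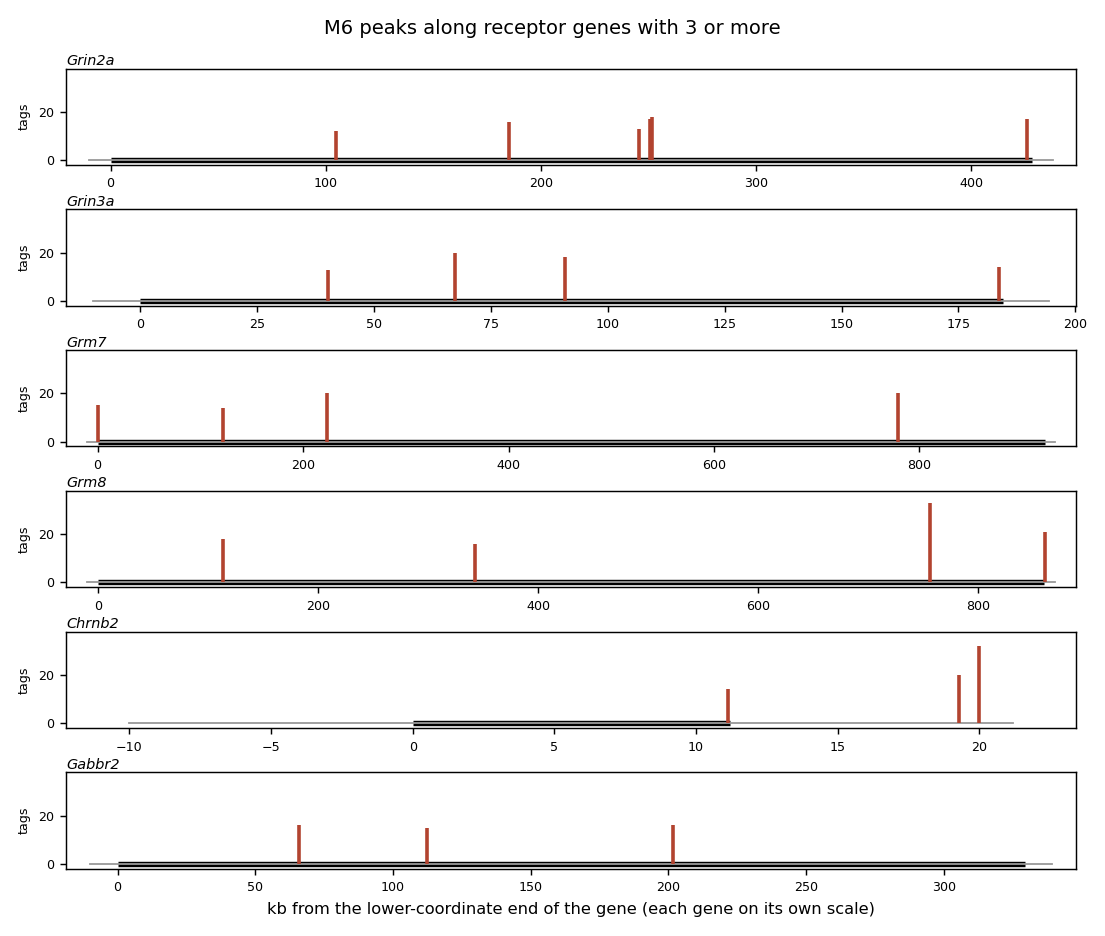
M6 peaks along 6 receptor genes with 3 or more, in kb from the lower-coordinate end of each gene, each on its own scale. Black bars are gene bodies, thin lines 10 kb on either side, and red lines mark summits with their pileup in tags as height. In Grin2a the peaks are spread along the body, while in Chrnb2 the 2 tallest lie beyond the gene, at the end of Ube2q1. The same windows held 0 W2 peaks.

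AMPA and kainate receptor genes encode the other ionotropic glutamate channels, and AMPA receptors carry most fast excitation in the brain. Of 4 AMPA subunit genes, against 3.41 from the length classes, only Gria4 had an M6 peak, inside the gene with a pileup of 16 tags and a fold of 4.57. Gria1, Gria2 and Gria3 had none in either library, and the class means would have given the family 12.6 peaks. Of 5 kainate subunit genes, 3 had an M6 peak and 1 a W2 peak, against 4.21 and 1.603 from the length classes. Grik1 had 1 and Grik4 had 2 peaks inside their bodies, with pileups of 11 to 19 tags and −log10 q values of 2.06 to 7.42. Grik2 and Grik3 had none, although Grik2 spans 696 kb and 91% of the 100 genes nearest in length had an M6 peak. The strongest peak at any receptor locus lay 1.39 kb outside Grik5, which encodes a high-affinity kainate subunit, at chr7:25076867-25077577. There M6 had a pileup of 58 tags over a background of 7.30 (fold 7.11, −log10 q 27.5), and W2 had 38 tags over 4.82 (fold 6.70, −log10 q 16.4). The summit was about as far, 1.41 kb in M6, from an end of Zfp574.

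Of 8 metabotropic glutamate receptor genes, 4 had a peak in M6 and 0 in W2, against 6.36 and 2.56 from the length classes, and the family held 10 M6 peaks against 21.9. The 4 with an M6 peak were Grm4, Grm6, Grm7 and Grm8, which form group III of these receptors. That grouping was noticed after the values were seen. Grm5, a group I gene, and the group II genes Grm2 and Grm3 had no peak in either library. Grm8, chr6:27275121-28135146, had 4 M6 peaks. Its strongest, chr6:28031866-28032301, lay 94382 bp downstream of the nearest RefSeq start, with a pileup of 33 tags over a background of 3.32 (fold 7.87, −log10 q 18.03). It was the strongest M6 peak at a receptor locus without a W2 counterpart, and no W2 peak lay within 389 kb of it. Grm7 also had 4 M6 peaks, including a weak one at its start with a pileup of 15 tags and a fold of 3.67. Both genes are so long that these counts fall short of the 100 genes nearest in length, whose means were 5.59 for Grm7 and 5.4 for Grm8. Grm4 had 1 peak inside the gene (17 tags). The peak of Grm6, a receptor of retinal bipolar cells, lay at an end of Zfp879 (17 tags).

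GABA-A receptor genes, the subunits of the main inhibitory chloride channel, had peaks at 7 of 17 genes in M6 and 0 in W2, where the length classes would have given 12.9 and 5.96. Gabra2, Gabra4, Gabra5, Gabrb1, Gabrg1 and Gabrr3 were among the 7, and 6 of the 7 had a peak within 1 kb of an end. Gabrg1 had a pair of M6 peaks around its start (pileups of 22 and 15 tags, folds of 5.75 and 4.10). The nearest W2 peak lay 2071 kb away. Gabra4 and Gabrb1 start 387 bp apart and shared a peak that covered both starts, with a pileup of 15 tags and a fold of 3.70. Its summit lay 25 bp upstream of the Gabrb1 start and 412 bp downstream of the Gabra4 start. A peak at an end of Gabra5 had 25 tags and a fold of 4.05. Gabra2 had a weak peak at its start (13 tags, fold 3.59). Gabrr3, a rho subunit known from retina, had 1 peak 5.16 kb outside the gene and 1 at the end of Riox2. The Riox2 peak only touched the edge of the locus window, with its summit 10.4 kb from Gabrr3. Its W2 counterpart lay just outside the window, so this site, listed in both libraries, was counted at Gabrr3 for M6 alone.

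Many of these genes sit in clusters, so receptor genes with gaps of up to 300 kb were also read as units. There were 10 such clusters with 24 genes, of which 7 had an M6 peak between their outer ends or within 10 kb of them, and 0 had a W2 peak. The clusters together held 12 M6 peaks. No other loci of similar span were counted beside them, so these counts cannot be called high or low. The cluster of Chrna5, Chrna3 and Chrnb4 on chromosome 9 spans 68.1 kb and held 1, at the start of Chrna5. The cluster of Gabrg1 and Gabra2 on chromosome 5 spans 345 kb and held 3. That of Htr3a and Htr3b and that of Gabre and Gabra3 had no peak in either library.

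GABA-B receptors are pairs of the proteins of Gabbr1 and Gabbr2 and act through G proteins, and both genes had M6 peaks and no W2 peak. The length classes would have given 1.52 genes in M6 and 0.626 in W2. The 2 genes held 5 M6 peaks, against 5.10 from the class means. Gabbr1 had 1 at its start (19 tags, fold 3.8) and a stronger one 6.57 kb upstream (18 tags over a lower background of 2.65, fold 5.20, −log10 q 6.94). Gabbr2 had 3 inside the gene with 15 to 16 tags, near the mean of 3.04 of the 100 genes nearest in length. The 4 glycine receptor alpha genes Glra1, Glra2, Glra3 and Glra4 had no peak in either library, where the length classes would have given 2.99 genes in M6 and 1.43 in W2.

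Nicotinic acetylcholine receptor genes had peaks at 7 of 16 genes in M6 and 1 in W2, against 9.63 and 4.95 from the length classes. Chrnb2, the main beta subunit of nicotinic receptors in brain, had 3 M6 peaks, which 6% of the 100 genes nearest in length matched or passed. A weak one lay at its start (14 tags, fold 3.62) and the stronger ones (32 and 20 tags) at an end of Ube2q1. Chrna5, an accessory subunit, had a peak at its start, chr9:54981250-54981479, with 21 tags over a background of 2.65 (fold 6.03, −log10 q 9.41). Its cluster partners Chrna3 and Chrnb4 had none. Subunits of the muscle receptor were split. Chrnb1 had a peak in both libraries near its start, also within 1 kb of Fgf11, with 41 tags in M6 (fold 8.11, −log10 q 22.4) and 28 tags in W2 (fold 7.29, −log10 q 13.5). It was the 1 receptor gene with a gene-end peak in W2. Chrnd had an M6 peak at an end (20 tags), Chrng had one at an end of Eif4e2 (22 tags), and Chrna1 and Chrne had none. Chrna10, of the receptor of inner ear hair cells, had a weak M6 peak inside the gene (13 tags), and Chrnb3 had one 6.59 kb outside (19 tags). Chrna2, Chrna4, Chrna6, Chrna7 and Chrna9 had none in either library.

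Few serotonin receptor genes had a peak in either library. Of 14 genes, 3 had an M6 peak and 1 a W2 peak, against 9.10 and 4.57 from the length classes. Htr2b, a receptor coupled to calcium release, had an M6 peak 4.42 kb outside the gene with 25 tags over a background of 2.65 (fold 7.12, −log10 q 13.0). Htr7, which raises cyclic AMP, had one inside the gene with 23 tags (fold 6.57, −log10 q 11.2). Htr1b, which lowers cyclic AMP, had a peak at an end with 13 tags and a −log10 q of 1.38, close to the lowest of the M6 list. Htr1d, of the same signaling class, was the 1 receptor gene with a W2 peak only (1.30% of receptor genes, beside 0.973% of all genes). That peak lay inside the gene at chr4:136439186-136439437, with 19 tags over a background of 3.00 (fold 5.0, −log10 q 6.20), and the nearest M6 peak was 29.9 kb away. Both subunit genes of the serotonin-gated channel, Htr3a and Htr3b, had no peak, nor had Htr1a, Htr1f, Htr2a, Htr2c, Htr4, Htr5a, Htr5b and Htr6.

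GABA-A receptor genes without a peak in either library included Gabrr1, Gabrr2, Gabrd, Gabre, Gabra3, Gabra6, Gabrb2 and Gabrg3, and the nearest M6 peak to Gabrb2 lay 1010 kb away. Of all 42 receptor genes without a peak, 17 were at least 100 kb long. Their median distance to the nearest M6 peak was 62.7 kb, from 11.0 kb at Gabrd to 1456 kb at Htr2c. All 6 receptor genes on the X chromosome were among them, and of all 966 genes on that chromosome 32.5% had a locus peak in M6 and 4.97% in W2.

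The M6 list is the longer, so the 5735 M6 peaks ranking first by −log10 q were also set beside the 5735 of W2. M6 then had peaks at 8 receptor genes and W2 at 5, against 26.7 from the length classes in M6. Those 8 were Grik5, Grin2c, Chrnb1 and Grin3b, which had peaks in both libraries, and Grm8, Chrnb2, Htr2b and Htr7, which had none in W2. Every M6 peak kept had a −log10 q of at least 10.8, and the strongest peak of Grin2b fell just short of that.

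Promoters were compared directly because many receptor genes start in CpG islands, which are open in most cell types. RefSeq start windows (250 bases before to 50 after a start, GRCm38.p6) were at hand for 56 of the 77 genes, with 66 starts. M6 peaks overlapped 10 of the 66 windows (15.2%, 7.51 to 26.1%) and W2 peaks 0 (0 to 5.44%), against 35.7% and 16.6% of all 21262 windows. Some of the 10 share a peak with another, so they are not independent, although the interval treats them so. By gene, M6 peaks lay over a window at 38.3% of all genes with one and W2 peaks at 18.3%. Windows with at least 55% G and C and an observed-to-expected CpG ratio of at least 0.6 were called CpG-rich. Of the 21 CpG-rich receptor windows, 4 had a peak in M6 (19.0%, 5.45 to 41.9%) and 0 in W2 (0 to 16.1%), against 63.5% and 31.5% of all 8709 CpG-rich windows. The 4 were those of Chrna5, Grin1, Gabra2 and Gabrb1. Of the 45 other receptor windows, 6 had a peak in M6 (13.3%, 5.05 to 26.8%) and 0 in W2, against 16.3% and 6.21% of all others. At the shares of their classes, 20.7 of the 66 windows would have had an M6 peak and 9.41 a W2 peak.

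The 6 start windows with the strongest overlapping peaks are given here to let base composition and motifs be read beside the peaks. All are from RefSeq (GRCm38.p6), 5′ to 3′ on the strand of the gene, and capitals mark matches to the motifs searched. Chrna5 lies at chr9:54981238-54981537 (+), Grin1 at chr2:25319138-25319437 (−), Gabbr1 at chr17:37045716-37046015 (+), Gabrg1 at chr5:70842568-70842867 (−), Gabrb1 at chr5:71657671-71657970 (+) and Gabra4 at chr5:71658259-71658558 (−).
Chrna5: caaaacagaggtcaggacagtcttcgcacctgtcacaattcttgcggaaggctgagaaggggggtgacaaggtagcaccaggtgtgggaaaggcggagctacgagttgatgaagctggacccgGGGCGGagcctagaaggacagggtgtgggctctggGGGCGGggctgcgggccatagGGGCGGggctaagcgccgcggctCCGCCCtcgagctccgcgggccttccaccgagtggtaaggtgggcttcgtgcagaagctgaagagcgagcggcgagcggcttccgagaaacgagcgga
Grin1: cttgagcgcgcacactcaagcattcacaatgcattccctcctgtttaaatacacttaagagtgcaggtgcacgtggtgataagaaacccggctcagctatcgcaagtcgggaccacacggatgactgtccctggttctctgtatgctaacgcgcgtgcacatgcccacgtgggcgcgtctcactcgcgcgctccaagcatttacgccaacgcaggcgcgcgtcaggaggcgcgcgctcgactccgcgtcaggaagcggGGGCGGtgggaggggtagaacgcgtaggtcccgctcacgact
Gabbr1: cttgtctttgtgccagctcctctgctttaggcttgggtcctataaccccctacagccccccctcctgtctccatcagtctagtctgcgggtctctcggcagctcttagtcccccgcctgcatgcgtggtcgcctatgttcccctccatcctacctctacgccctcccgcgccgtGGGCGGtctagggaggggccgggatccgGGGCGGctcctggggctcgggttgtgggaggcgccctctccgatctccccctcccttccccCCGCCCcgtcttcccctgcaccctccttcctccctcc
Gabrg1: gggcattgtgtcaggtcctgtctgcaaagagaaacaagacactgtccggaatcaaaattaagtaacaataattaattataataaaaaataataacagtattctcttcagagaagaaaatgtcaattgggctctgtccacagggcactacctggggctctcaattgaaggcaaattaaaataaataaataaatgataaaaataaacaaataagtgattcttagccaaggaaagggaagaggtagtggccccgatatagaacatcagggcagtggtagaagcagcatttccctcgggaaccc
Gabrb1: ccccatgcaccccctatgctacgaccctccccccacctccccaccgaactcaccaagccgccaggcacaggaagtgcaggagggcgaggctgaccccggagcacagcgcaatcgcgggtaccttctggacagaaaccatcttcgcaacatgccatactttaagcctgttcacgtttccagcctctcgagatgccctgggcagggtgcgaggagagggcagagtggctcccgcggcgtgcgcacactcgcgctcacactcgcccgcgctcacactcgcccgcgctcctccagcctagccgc
Gabra4: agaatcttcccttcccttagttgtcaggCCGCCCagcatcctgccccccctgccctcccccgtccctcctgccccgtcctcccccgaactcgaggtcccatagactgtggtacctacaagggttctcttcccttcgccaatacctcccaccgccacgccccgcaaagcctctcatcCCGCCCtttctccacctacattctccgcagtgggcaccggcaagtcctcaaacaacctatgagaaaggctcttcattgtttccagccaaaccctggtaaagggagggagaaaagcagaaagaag

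Among these windows, 5 had a high share of G and C, from 58.7% at Gabra4 to 67.3% at Gabbr1, and that of Gabrg1 stood apart with 38.3%. The motifs were searched on both strands in all 21262 windows. The GC box GGGCGG, bound by SP1-type factors, was in 8 of the 10 receptor windows with an M6 peak. It was in 48.5% of the 66 receptor windows and in 46.2% of all windows. GC boxes were not counted among all 7582 windows with an M6 peak, of which 5534 were CpG-rich. The 10 receptor windows include 2 overlapping ones of Grm7, both with a GC box, and those of Gabra4 and Gabrb1, which share 1 peak. Every capital above is a GC box. The left and right parts of the RE1 element, TTCAGCACC and GGACAGCGC, to which the repressor REST binds in neuronal genes, were in none of those 10. They were in the windows of Grm2 and of Gria2 and Htr5a (1.52% and 3.03% of receptor windows, against 0.414% and 0.536% of all). The E-boxes CAGCTG and CAGATG were in 12.1% and 4.55% of receptor windows, against 15.6% and 14.6% of all. The forkhead motif TGTTTAC was in 3.03% against 3.01%, the AP-1 motif TGANTCA in 7.58% against 6.99%, the cyclic AMP response element TGACGTCA in 0 against 2.23%, and the TATA box TATAAA in 9.09% against 12.6%. None of these was in a receptor window with an M6 peak. With 10 such windows and shares this low, the absence of these motifs or of the RE1 parts says little. A match is a string of letters and not a bound site.

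Other genes of transmitter signaling came closer to their length classes in M6. Auxiliary subunits and scaffolds of glutamate receptors had a locus peak at 30 of 36 genes in M6 and 10 in W2, against 27.7 and 12.3 from the length classes. Partners of GABA and glycine receptors had peaks at 9 of 15 genes in M6 and 4 in W2, against 9.99 and 4.86. Partners of nicotinic receptors had 10 of 12 in M6 and 1 in W2, against 8.07 and 4.00. Genes for making, moving and breaking down transmitters had 21 of 33 in M6 and 6 in W2, against 22.7 and 11.2. Muscarinic, dopamine, adrenergic and histamine receptor genes had 12 of 23 in M6 and 1 in W2, against 13.2 and 6.46. The M6 ratio to the length classes thus ran from 0.901 to 1.24 in these lists, where the receptor genes had 0.618. In W2 every one of these lists also fell short of its length classes. The gap was wide for the muscarinic, dopamine, adrenergic and histamine receptor genes (1 against 6.46) and the nicotinic partners (1 against 4.00). A W2 shortfall was thus not particular to the receptor genes described here. The difference between lists was not tested.

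**Figure D5:**
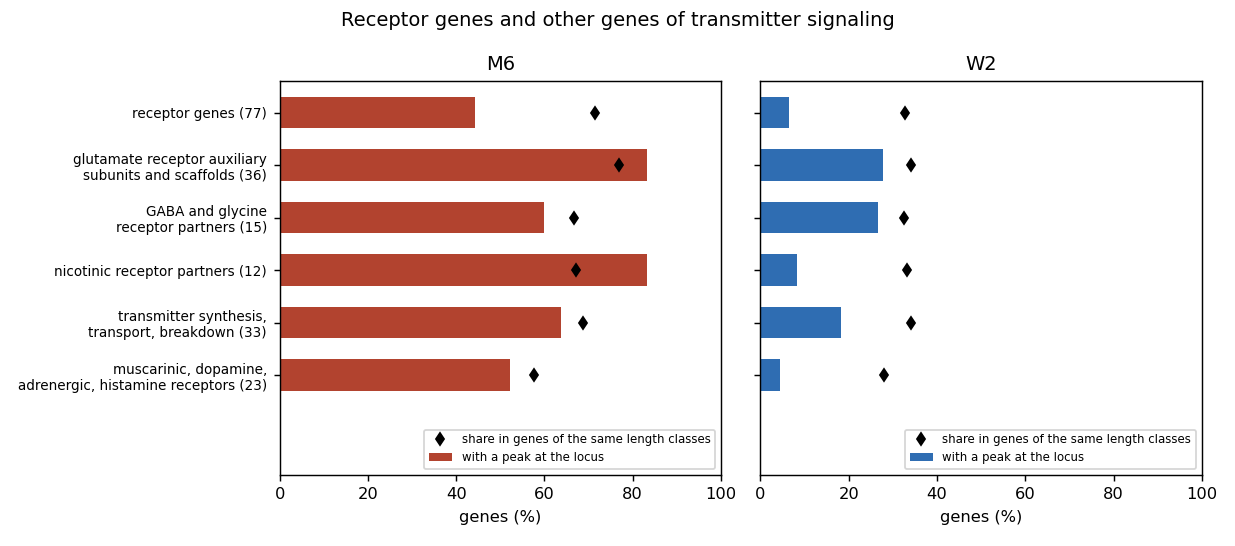
Percentage of genes with a locus peak in M6 (left) and W2 (right) for the receptor genes and 5 other lists, with the number of genes in parentheses. Diamonds mark the percentage that all protein-coding genes of the same length classes would give. In M6 the receptor bar ends at 44.2%, far left of its diamond, while the bars of the other lists end closer to theirs or beyond them.

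The strongest M6 peaks of these lists were at Shank1, a postsynaptic scaffold (−log10 q 41.5), Slc6a12, a GABA and betaine transporter (18.5), the dopamine receptor gene Drd2 (16.0), Nlgn2, an adhesion protein of inhibitory synapses (15.7), and Lrp4, the agrin receptor (14.1). In W2 they included those at Dlgap2, another scaffold (16.4), Gphn, the anchor of glycine and GABA-A receptors (14.5), and Lrp4 (6.27). These are locus peaks and may belong to neighbouring genes.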

How the data were processed

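The data are ATAC-seq peak lists of 2 libraries, M6 and W2, deposited per library. The submitters' processing notes name build mm10 and the tools Bowtie2, deepTools, SAMtools 1.4 and Trim Galore 0.5.0. The sources used here do not give the peak caller, its threshold, the treatment of duplicates or any shift of read ends, each of which could move peak numbers and edges. For each peak the authors deposited a fold (a linear ratio of summit over local background), a −log10 p, a −log10 q and a score, of which the score was not used. Peaks on other sequences (24 in M6, 30 in W2) were left out. The pileup and background were recovered as whole tags from the fold, read as (pileup + 1)/(background + 1), and the −log10 p, read as a Poisson upper tail, within 0.001 for 100% of peaks. Genes, without strand, came from a RefSeq table of GRCm38.p6, the assembly of mm10.

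Length classes were split at 10, 30, 100 and 300 kb. Intervals are exact (Clopper-Pearson), and genes are not independent. The scripts, in Python 3.11.15 with scipy 1.17.1, were tested on simulated data. The members and lists were chosen with earlier results of these data known. Every receptor gene could be named, with full values for those with a W2 peak, a gene-end peak, the most or the strongest M6 peaks. For other lists the gene with the strongest peak of each library was named. The results of some genes these rules select are not reported here, and such genes are left out of the plots by gene, but counts and medians cover every gene.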

Additional observations from a re-analysis of the deposited data

How the results depend on the processing

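No paired analysis was possible because each stage had 1 library, and for the same reason no replicate could be left out. Of 78 values recomputed, 47 stayed within 1.5 times the reported value (counts) or within its 95% interval (ratios and the overlap share). All 22 recomputed ratios of M6 to the length classes stayed below 1 (0.30 to 0.829 for genes, 0.234 to 0.572 for peaks), and the W2 ratio was not recomputed. With 50 kb on either side, 53 receptor genes had an M6 and 22 a W2 peak, from 120 M6 and 29 W2 peaks, with ratios of 0.829 and 0.572. With gene bodies alone, W2 had 2 peaks at 2 genes. A −log10 q minimum of 5 left 32 M6 peaks and 8 genes with an M6 gene-end peak. With equal numbers of peaks by −log10 q there were 8 M6 peaks at 8 genes, 4 genes with M6 peaks only and 1 with an M6 gene-end peak. The ratios were 0.30 and 0.234, and 50% of the M6 peaks overlapped a W2 peak. Ranked by fold, there were 11 M6 peaks at 11 genes, 7 with M6 peaks only and 3 with a gene-end peak, and ratios of 0.420 and 0.323. Leaving out peaks at ends of genes that are no receptor gene left 2 W2 peaks at 2 genes, 0 of them at a gene end, and ratios of 0.817 and 0.561, but this removes the comparison genes' own promoters while keeping those of receptor genes. Removing from every gene only the peaks at ends of other genes, added after seeing the data, left 3 W2 peaks at 3 genes and ratios of 0.577 and 0.411. Leaving out chromosomes X and Y, also added after seeing the data, gave 0.657 and 0.446. With 2.5 kb counted as a gene end, 2 genes had a W2 gene-end peak. The cause of the other shifts was not tested. The lists hold no site under 10 tags in M6 or 12 in W2, and the depth is unknown.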

Other observations

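Scaffold and auxiliary subunit genes of glutamate receptors differed widely in their peak counts. The genes named here were chosen after their values were seen. The median over the 36 genes of that list was 1 M6 peak, and all genes of 300 kb and above had a mean of 4.11. Longer genes had higher means, 4.73 for the 100 genes nearest in length to Gabrg3 (671 kb) and 5.4 for those nearest to Grm8 (860 kb). All genes of 100 to 300 kb had a mean of 2.17 M6 peaks, and those of 30 to 100 kb 1.28. Grip1, which binds AMPA receptor tails, had 14 M6 peaks and 1 W2 peak within its locus of 634 kb and its flanks. Dlgap1, a scaffold protein of the postsynaptic density, had 11 M6 and 2 W2 peaks (852 kb), and Dlgap2 had 7 M6 peaks and 1 W2 peak (758 kb). Grid1, a glutamate receptor-like subunit gene, had 2 M6 and 0 W2 peaks (763 kb), and Shisa6, an auxiliary AMPA receptor subunit gene, had 0 in M6 and 0 in W2 (316 kb). Shank3, a scaffold gene of 67.2 kb, had 0 in M6 and 0 in W2. Dlg2, another such scaffold gene and the longest of these at 1973 kb, had 1 peak in each library, at a gene end, with a −log10 q of 34.6 in M6 and 5.90 in W2. Cnih3, an auxiliary AMPA receptor subunit gene of 110 kb, had 4 M6 peaks, the strongest with a −log10 q of 18.4, and 0 W2 peaks. Outside the glutamate synapse, Ddc, whose enzyme makes serotonin and dopamine, had 5 M6 and 2 W2 peaks with strongest −log10 q values of 10.3 in M6 and 9.75 in W2. Tph1, whose enzyme makes the serotonin precursor outside the brain, had 2 M6 peaks and 1 W2 peak, with strongest −log10 q values of 6.81 in M6 and 7.92 in W2.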
